A study of Mus musculus with 135 samples.

Results

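The 36 genes described here encode splicing regulators and long noncoding RNAs that stay in the nucleus. They are 12 SR and SR-like proteins (Srsf1 to Srsf7, Srsf9 to Srsf11, Tra2a and Tra2b), 4 SR-protein kinases (Clk1 to Clk4), 4 members of the U1 snRNP and LUC7-like family (Snrnp70, Luc7l, Luc7l2 and Luc7l3), 3 RBM factors (Rbm5, Rbm25 and Rbm39), 5 RS-rich speckle proteins (Rsrp1, Pnn, Pnisr, Son and Srrm2), 2 helicases (Ddx5 and Ddx17), 2 hnRNPs (Hnrnph1 and Hnrnpdl) and 4 nuclear long noncoding RNAs (Malat1, Neat1, Meg3 and Miat). All 36 symbols were found, 1 row each, among the 55416 genes of both count tables, and all 36 passed the filter on low counts in every model. The genes were picked by name with their levels in these same libraries already known. The reason was that those levels followed the share of no-feature reads, which differs between series of mouse numbers. That relation is therefore given below as a description with no test. No-feature reads are those not assigned to any annotated exon, so reads in introns of annotated genes can be among them. The short name outside genes is used for them below.

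The study asked how repeated social defeat (RSD) and the antibiotic minocycline act on the brain of mice with sickle cell disease. RNA of 2 brain regions, cerebral cortex and hippocampus, was sequenced from male Townes mice, a strain in which human globin genes stand in place of the mouse ones, either with the sickle beta-globin (SS) or with the normal human one (AA). The mice were 6 months old. In RSD an aggressor male was put into a cage of 3 mice for 2 hours on each of 6 days, and minocycline was given in the drinking water from the day before the first session until the last RSD day. Controls, called SS and AA, had neither. Cortex libraries in the comparisons came from 8 SS, 6 SS + RSD, 4 SS + minocycline, 14 SS + RSD + minocycline, 12 AA, 3 AA + RSD and 18 AA + RSD + minocycline mice, plus 1 AA + minocycline mouse that entered no comparison. The hippocampus had 7 SS and 11 AA libraries and the same numbers otherwise. Within a tissue each library is 1 mouse, so the p-values of comparisons within a tissue rest on spread between libraries of different mice. In groups with libraries of both stretches of columns described below, that spread includes the step between the stretches. RSD was applied to cages of 3 mice. The labels used here name no cage, so the models treat cage mates as independent. In bulk tissue, fewer cells of a type and less RNA per cell cannot be told apart.

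SR proteins carry stretches of arginine and serine and bind exonic enhancers, where they help the U1 and U2 snRNPs to find the ends of introns. CLK kinases phosphorylate these stretches and release SR proteins from nuclear speckles, storage domains built around proteins such as Son and Srrm2 and rich in the long noncoding RNA Malat1. Neat1 is the scaffold of a different nuclear body, the paraspeckle. Many genes of this class keep introns in part of their transcripts, or include exons that lead to nonsense-mediated decay, and the intron-retaining RNA stays in the nucleus. In brain, Meg3 and Miat are expressed mainly in neurons.

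The annotation of GRCm39 shows this class feature. Of the 32 protein-coding members, 27 (84.4%) had at least 1 transcript annotated as retaining an intron, against 53.4% of 16339 tested protein-coding genes. All 32 (100%) had a transcript marked for nonsense-mediated decay, against 67.9%. The median member had 34.5 annotated transcripts, against 13, which also gives more chances for each transcript type to be listed. Gene counts do not separate spliced from unspliced transcripts, so none of the levels below says how much of a gene's RNA held an intron.

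The 250 bases before the annotated start are shown for 4 members, chosen because Meg3, Miat and Snrnp70 parted without overlap between the sets of libraries described below and Srsf3 hardly differed. Capitals mark matches, on either strand, to any of 8 motifs named after the sequences. Sequences are from GRCm39, read 5′ to 3′ on the strand of the gene.
Meg3, chr12:109506629-109506878, plus strand: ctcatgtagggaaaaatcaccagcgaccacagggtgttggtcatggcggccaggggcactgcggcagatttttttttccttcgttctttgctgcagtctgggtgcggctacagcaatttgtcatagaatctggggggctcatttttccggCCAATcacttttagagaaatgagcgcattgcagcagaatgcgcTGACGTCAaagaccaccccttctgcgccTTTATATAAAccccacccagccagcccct
Miat, chr5:112377262-112377511, minus strand: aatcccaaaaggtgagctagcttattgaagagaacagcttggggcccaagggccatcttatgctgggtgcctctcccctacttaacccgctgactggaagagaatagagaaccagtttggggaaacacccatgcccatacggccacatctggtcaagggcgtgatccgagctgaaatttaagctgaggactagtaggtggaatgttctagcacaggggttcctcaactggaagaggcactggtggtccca
Snrnp70, chr7:45045167-45045416, minus strand: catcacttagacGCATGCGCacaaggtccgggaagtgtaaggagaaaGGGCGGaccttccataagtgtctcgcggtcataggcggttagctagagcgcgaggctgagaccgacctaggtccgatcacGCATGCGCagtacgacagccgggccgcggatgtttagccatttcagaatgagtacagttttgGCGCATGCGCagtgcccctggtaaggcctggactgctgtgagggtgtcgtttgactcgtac
Srsf3, chr17:29251071-29251320, plus strand: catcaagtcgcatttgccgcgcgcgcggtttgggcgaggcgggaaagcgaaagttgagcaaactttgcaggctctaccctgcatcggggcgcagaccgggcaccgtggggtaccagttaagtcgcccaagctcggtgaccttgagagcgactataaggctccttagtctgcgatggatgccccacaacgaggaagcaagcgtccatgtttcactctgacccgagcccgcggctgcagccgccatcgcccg
Meg3 held a TATA box, which overlaps itself on both strands, with a CCAAT box and a cyclic AMP response element (CRE). Snrnp70 held a GC box and 4 matches to the core of the NRF1 motif, of which 2 overlap. Miat and Srsf3 held none of the motifs. Over all 36 members, the GC box GGGCGG was in 58.3% of these windows, against 36.5% of 23958 promoters of tested genes. The ETS motif CCGGAAG was found in 19.4% of the windows of the members and in 6.99% of all promoters. For CCAAT the shares were 30.6% and 33.6%, and for the E-box CACGTG they were 5.56% and 6.28%. The TATA box, searched as TATAAA, was in 2.78% of the member windows (1 of 36) and in 10.4% of all. The CRE, searched as TGACGTCA, was in 5.56% (2 of 36) and 1.49% of them. The NRF1 core, searched as GCATGCGC, was in 8.33% (3 of 36) and 2.3%, and the element TCTCGCGA in 8.33% (3 of 36) and 0.856%. These shares of the members rest on very few genes. The median GC content was 57% against 53.6%, and the median number of CpG 17 against 8. The promoters compared are of tested genes of any type, while 32 of the 36 members are protein-coding, and shares among protein-coding genes alone were not computed. A match is a run of letters and not evidence of a bound site.

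The cortex libraries held 16295042 to 107713193 reads on genes and the hippocampus libraries 12869149 to 68731008. A pair of libraries per tissue with identical counts but labels of different groups was left out. The libraries labelled 9674 (AA + RSD) went against their tissue labels. The one labelled cortex had 552 CPM summed over 5 hippocampus markers and 132 over 5 cortex markers, while 61 other cortex libraries had 115 to 418 and 244 to 726. The libraries labelled 5844 and 5853, both AA, had cortex Slc4a1 levels of 9.69 and 4.16 CPM, against at most 2.85 in other AA mice, and the one labelled 7078, SS, had 0.508 against at least 4.25 in other SS mice. Slc4a1 encodes an anion exchanger of red blood cells. The library labelled 9631 (AA) held 1940 cortex counts, to 3 digits, of the mouse globin gene Hbb-bs, against at most 8 in the others. All were kept under their labels, and results that change without them are given both ways.

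The share of a library's reads that were assigned to no annotated exon, called outside genes, changed along both tables. The libraries used here place the change between columns 37 and 39 of the cortex table and between columns 36 and 39 of the hippocampus table, and the first stretch is taken as columns 1 to 37 in both. The share was 7.34% to 13.9% in the first stretch of the cortex except for 1 library at 4.27% (median 9.75%, n = 37), and 3.68% to 6.09% from column 38 on except for libraries at 8.39% and 9.84% (median 5.01%, n = 29). In the hippocampus it was 6.49% to 10.7% except for 1 library at 24% (median 9.32%, n = 36), against 3.98% to 5.77% except for 1 library at 9.48% (median 4.68%, n = 28). The sources used here do not say what the order of the columns stands for, and this split was found after seeing the data. The stretches cut across the groups unevenly. All 6 SS + RSD and all 3 AA + RSD libraries of each tissue stood from column 38 on. In the cortex the first stretch held 6 of 8 SS, 6 of 12 AA, 10 of 14 SS + RSD + minocycline and 12 of 18 AA + RSD + minocycline libraries, and in the hippocampus 5 of 7, 6 of 11, 10 of 14 and 12 of 18. The SS + minocycline libraries fell 2 and 2.

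The levels of the 36 genes parted along the same line. In CPM, the reads of a gene scaled to a common total of reads on genes per library, the first-stretch median divided by the second-stretch median was 1.55 for the middle member of the cortex (range over members 0.967 to 5.72) and 1.48 for that of the hippocampus (0.96 to 6.44). It was above 1 for 34 and 35 of 36. With CPM scaled by TMM factors, which correct for differences in composition, it was above 1 for 34 and 33. In the cortex the lowest first-stretch library stood above the highest second-stretch library for 4 members, Clk3, Meg3, Miat and Snrnp70, and in the hippocampus for 17. Of all genes, 1.31% did so in the cortex and 4.03% in the hippocampus. The members were picked for this pattern, so nothing is read from the difference.

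**Figure D1:**
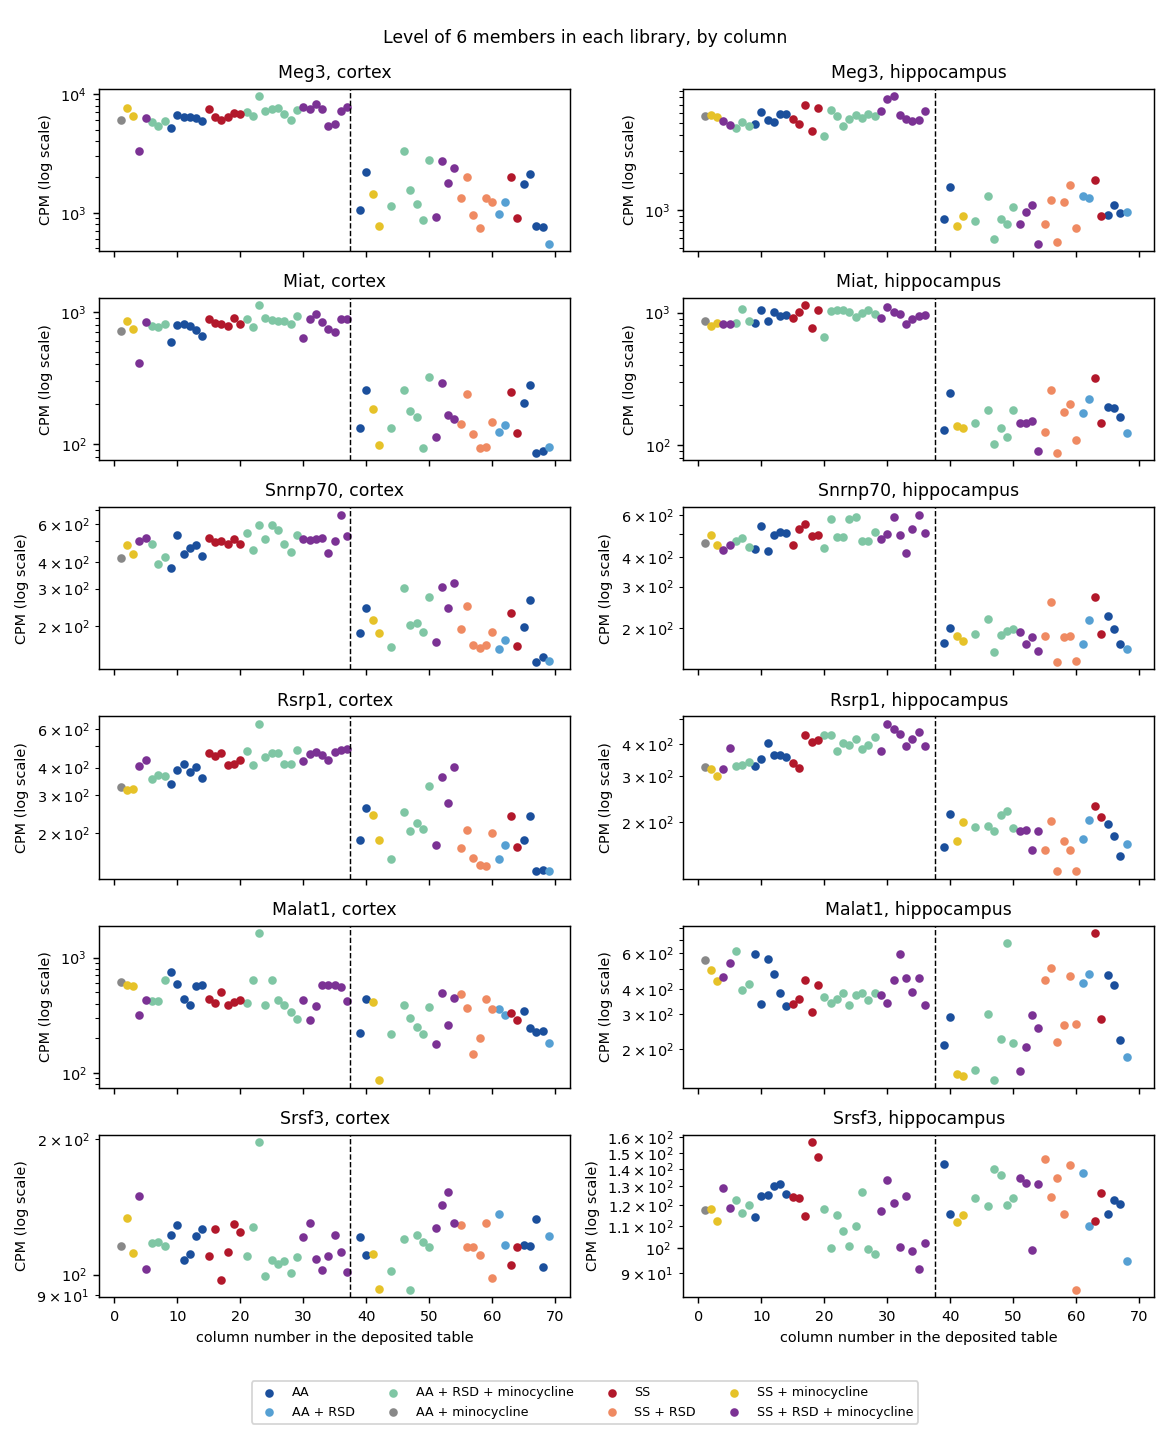
Level in CPM (log scale) of Meg3, Miat, Snrnp70, Rsrp1, Malat1 and Srsf3 in each library of the cortex (left) and hippocampus (right), by column number of the deposited table, with a dashed line between columns 37 and 38. Each point is 1 mouse, coloured by group. Meg3, Miat and Snrnp70 step down at the line without overlap in both tissues, and Srsf3 does not.

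Among the long noncoding RNAs the cortex ratios ran from 1.45 to 5.72. Meg3, an imprinted RNA, ran from 3283 to 9589 CPM in the first cortex stretch and from 549 to 3282 in the second, a ratio of medians of 5.35. In the hippocampus it ran from 3920 to 8167 and from 542 to 1761 (5.94). Miat ran from 411 to 1118 against 85.7 to 321 in the cortex (5.72) and from 652 to 1133 against 87.3 to 322 in the hippocampus (6.44). Both stepped down with no overlap. Neat1 overlapped in a few libraries, at 75.1 to 215 against 24.2 to 133 CPM in the cortex (2.76). Malat1, the RNA of speckles, overlapped widely, at 285 to 1632 against 86.1 to 497 in the cortex (1.45) and 308 to 618 against 140 to 759 in the hippocampus (1.44). The annotated exons of Miat lie opposite other genes over 32.6% of their length and those of Malat1 over 11.5%, and the strand setting of the counting is not given in the sources used here.

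Among the protein-coding members, Srrm2, Snrnp70 and Rsrp1 had the largest cortex ratios. Srrm2, a speckle scaffold, had first-stretch cortex levels of 356 to 1316 CPM and second-stretch levels of 166 to 599 (3.03). Snrnp70, the U1-70K protein that binds U1 snRNA, had 377 to 666 against 136 to 320 (2.66) with no overlap. Rsrp1 had 317 to 634 against 134 to 404 (2.3). Luc7l2 and Luc7l3, related to a yeast U1 component, had cortex ratios of 1.96 and 1.57, and Luc7l 1.43. Pnisr had 2.19, Pnn 1.51 and Son 1.53.

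The kinases had similar ratios. Their cortex ratios were 1.52 for Clk1, 1.69 for Clk2, 1.63 for Clk3 and 1.67 for Clk4, and their hippocampus ratios 1.46, 1.8, 1.64 and 1.67. The SR proteins were more spread. Srsf11 had a cortex ratio of 2.16, and Srsf6, Tra2a, Srsf5, Srsf1 and Srsf2 had 1.65, 1.63, 1.47, 1.47 and 1.45. Srsf3 (0.967 in the cortex, 0.96 in the hippocampus), Tra2b (0.984 and 1.01) and Srsf4 (1.09 and 1.05) were nearly level, with TMM-scaled hippocampus ratios of 0.893, 0.959 and 0.99. Srsf3 ran from 97.2 to 197 CPM in the first cortex stretch and from 92.5 to 153 in the second. The RBM factors Rbm25, Rbm5 and Rbm39 had cortex ratios of 1.74, 1.67 and 1.23. The helicases differed from each other, with 1.97 for Ddx17 and 1.14 for Ddx5, and the hnRNPs had 1.27 (Hnrnph1) and 1.23 (Hnrnpdl). For Srsf2, Srsf4, Srsf5 and Clk3, other genes lie opposite 67.6%, 36.1%, 28.8% and 23.7% of the annotated exons.

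The order of levels per exon length changed with the stretch. Per kilobase of annotated exon, Meg3 led the first cortex stretch at a median of 339 CPM, followed by Rsrp1 at 119 and Ddx5 at 118. From column 38 on Ddx5 led at 103, and Meg3 and Rsrp1 had 63.3 and 51.9. The lowest members were Srsf9 (3.48) in the first stretch and Neat1 (2.44) in the second. The length joins the exons of all annotated transcripts of a gene, 22397 bases for Neat1, so the order depends on that definition.

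A few libraries had a share of reads outside genes typical of the other stretch. For each library the members nearer to the first-stretch median than to the second were counted. Cortex libraries 5354 and 9888 stood in the second stretch with shares of 8.39% and 9.84%, yet 5 of 36 members lay nearer the first stretch in each, and Meg3 was 1221 and 1429 CPM. Hippocampus library 5648 (9.48%) had 4 such members and 783 CPM of Meg3. In the other direction, cortex library 7076 stood in the first stretch with 4.27% and had 21 such members, with Meg3 at 3283 CPM, the lowest of its stretch. Hippocampus library 9812, at 24%, had 34. Cortex libraries 9890 and 5875, both SS + RSD + minocycline, had ordinary second-stretch shares of 6.09% and 5.96% but 27 and 23 members nearer the first stretch. In the hippocampus of the same mice the counts were 9 and 4.

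**Figure D2:**
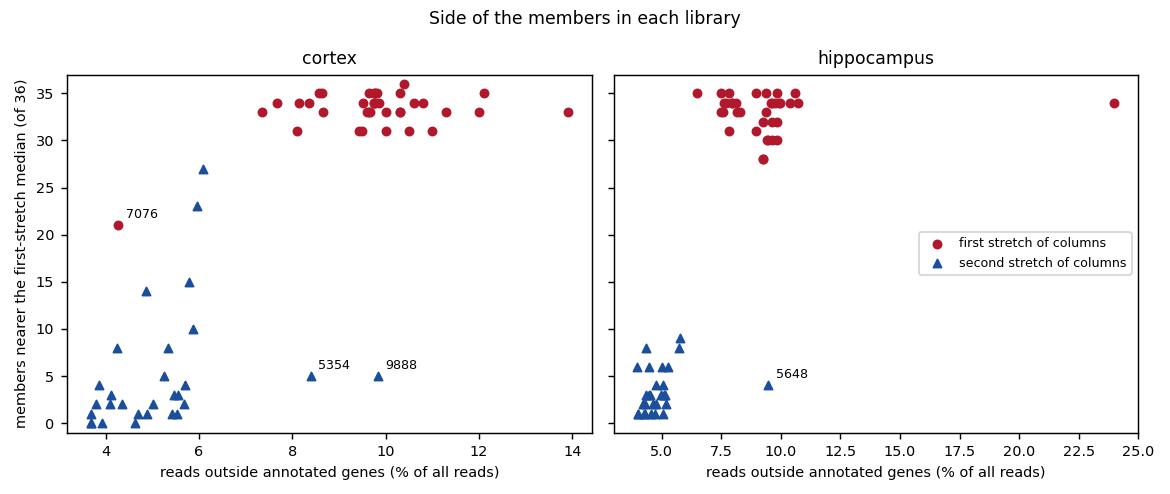
Number of the 36 members whose level lay nearer the first-stretch median than the second-stretch median (y axis). The x axis is the percent of all reads assigned to no annotated exon, labelled as outside annotated genes. Each point is 1 library, with circles for columns 1 to 37 and triangles for column 38 on. Named libraries have a share typical of the other stretch, and among them cortex library 7076 stands at 21 members while 5354, 9888 and 5648 stand at 4 or 5.

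Correlations with the share of reads outside genes, given as descriptions over libraries that also differ in group, were higher in the number series with both stretches than within one stretch. In mouse-number series B, which spans both, the median Pearson r of the members was 0.79 in the cortex (n = 43, Spearman 0.666) and 0.644 in the hippocampus (n = 42, 0.704). In series A, which stands in the second stretch, it was 0.352 (n = 15, 0.484) and 0.294 (n = 14, 0.352), or 0.582 and 0.128 without the 2 libraries farthest from the median share. In series C, which stands in the first, it was 0.356 (n = 8, 0.238) and -0.135 (n = 8, -0.298), or -0.401 and -0.044 without 2 libraries, and in its hippocampus only 12 of 36 members had an r above 0. Within the whole first stretch it was 0.382 (n = 37, 0.269) and 0.319 (n = 36, 0.274), and 0.204 and 0.196 without 2 libraries. Within the second it was 0.4 (n = 29, 0.574) and 0.002 (n = 28, 0.251), and 0.633 and 0.324 without those 2.

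The stretch difference was also fitted in edgeR in control mice alone. The fitted values are given as a description with no calls, since the members were picked for this pattern and the split was drawn from the data. The median log2 difference of the members was 0.574 in the cortex and 0.509 in the hippocampus, where the medians of all genes tested were 0.014 and 0.007. The largest were Meg3 (2.06 and 2.15) and Miat (2.02 and 2.13). Malat1 differed by 0.71 (cortex) and 0.0029 (hippocampus). Beside these, the median was -0.234 (cortex) and -0.309 (hippocampus) over 38 core spliceosome genes, 0.286 and 0.261 over 26 other SR-related genes, 0.104 and 0.075 over 28 other hnRNPs and 0.176 and 0.068 over 16 other long noncoding RNAs. Over cytosolic ribosomal protein genes it was -0.796 (77 genes) and -0.844 (78). Microglia markers, 5 genes with none at 0 in any library, summed to 215 to 317 CPM in the first cortex stretch and 287 to 434 in the second, neuron markers to 5410 to 8050 and 5270 to 7920, and their part in the members' difference was not tested.

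Medians by group are given for 10 members, in the order SS, SS + RSD, SS + minocycline, SS + RSD + minocycline, AA, AA + RSD and AA + RSD + minocycline. Meg3 had cortex medians of 6442, 1272, 3986, 5936, 3697, 977 and 5998 CPM and hippocampus medians of 4942, 966, 3234, 5225, 4933, 1250 and 4731. Miat had 805, 129, 464, 718, 437, 124 and 791 (cortex) and 914, 152, 467, 859, 830, 174 and 895 (hippocampus). For both, the SS + RSD and AA + RSD medians stood far below all others, and the groups split between stretches had wide ranges. Rsrp1 had 425, 163, 280, 434, 299, 153 and 392 (cortex) and 338, 157, 251, 388, 329, 173 and 357 (hippocampus). Neat1 had 152, 51.3, 93.4, 132, 90.5, 45.7 and 129 (cortex) and 134, 58.5, 92.4, 142, 108, 55.6 and 146 (hippocampus). For these as well, the SS + RSD and AA + RSD medians were the lowest in both tissues.

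The kinase Clk1 had cortex medians of 99.8, 63, 89.5, 108, 89.7, 61.7 and 98.9 CPM and hippocampus medians of 106, 70.1, 96.2, 104, 110, 67.7 and 100. Its paralog Clk4 had 60.8, 39, 55.1, 64, 55.6, 36.3 and 63.4 (cortex) and 71.5, 37.4, 56, 66, 68.3, 39.5 and 64.6 (hippocampus). Srsf5 had 329, 215, 267, 318, 296, 199 and 298 (cortex) and 311, 207, 247, 294, 300, 221 and 294 (hippocampus). In these 3 the medians of the untreated and the doubly treated mice of a genotype lay closer to each other than to that of its RSD-only mice. Luc7l3 had 204, 120, 169, 208, 172, 107 and 192 (cortex) and 202, 116, 149, 178, 179, 115 and 177 (hippocampus). Ddx5, the helicase p68, had 768, 664, 716, 786, 743, 697 and 734 (cortex) and 893, 776, 774, 837, 805, 702 and 793 (hippocampus). Malat1 had 407, 362, 489, 429, 411, 316 and 391 (cortex) and 358, 354, 293, 378, 382, 428 and 359 (hippocampus). In the cortex the lowest of the 7 medians was that of an RSD-only group for all 10 members, and in the hippocampus for 9, the exception being Malat1, and these are the groups that stood wholly in the second stretch. The members were picked for a pattern that parts the stretches, and the share of all genes with this order was not counted. Nothing is therefore read from these counts.

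The first question put to the groups was how SS + RSD mice differed from SS mice. All SS + RSD libraries stood in the second stretch and most SS libraries in the first. The members were picked for a pattern that parts these stretches, so nothing is read from their excess over all genes. The p-values below carry the same limit. In the cortex, 8 of 36 members were lower and 0 higher in SS + RSD than in SS mice, with a median log2 fold change of -0.503, beside 2.29% of 19906 genes lower, 0.281% higher and a median of 0.082. In the hippocampus 15 were lower and 0 higher (median -0.527), beside 3.01% of 20701 genes lower and 0.0966% higher. The lower members in the cortex were Miat, Meg3 and Neat1, the kinases Clk2 and Clk3, Snrnp70, Luc7l3 and Rsrp1. These 8 were also lower in the hippocampus, with Clk1, Clk4, Pnisr, Pnn, Rbm5, Hnrnpdl and Srsf5.

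Miat was 120, 805 and 902 CPM (lowest, median and highest) in SS cortex (n = 8) and 93.3, 129 and 240 in SS + RSD mice (n = 6), a log2 fold change of -2.13 ± 0.50 (SE, edgeR quasi-likelihood test, adjusted p = 0.0405). Meg3 was 900, 6442 and 7465 against 741, 1272 and 1989 (-1.95 ± 0.49, edgeR adjusted p = 0.0405). The 2 SS mice from column 38 on, at 120 and 248 CPM of Miat, were the 2 lowest of their group and lay within or just above the SS + RSD range. Rsrp1 was 173, 425 and 469 against 142, 163 and 208 in the cortex (-1.04 ± 0.19, edgeR adjusted p = 0.0405) and 209, 338 and 431 against 130, 157 and 203 in the hippocampus (-0.97 ± 0.22, edgeR adjusted p = 0.038), where the groups did not overlap. Neat1 was 55.9, 152 and 180 against 24.2, 51.3 and 84.8 in the cortex (-1.23 ± 0.33, edgeR adjusted p = 0.0451). Luc7l3 was 101, 204 and 235 against 102, 120 and 140 (-0.54 ± 0.13, edgeR adjusted p = 0.0405). In the hippocampus Srsf5 was 241, 311 and 370 against 174, 207 and 232 (-0.49 ± 0.11, edgeR adjusted p = 0.038) and Clk4 45.3, 71.5 and 86 against 25.8, 37.3 and 49.6 (-0.70 ± 0.18, edgeR adjusted p = 0.043).

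Among libraries from column 38 on, where 6 SS + RSD mice met 2 SS mice, 0 of 36 members were called by edgeR in either tissue. The median log2 fold change was 0.009 in the cortex, with 0 members at an unadjusted p under 0.05 (1.84% of all genes), and -0.105 in the hippocampus, with 5 (7.63%). Miat was -0.37 ± 0.39 and -0.50 ± 0.35, Meg3 -0.17 ± 0.39 and -0.37 ± 0.34, and Rsrp1 -0.25 ± 0.24 and -0.44 ± 0.15. With 2 control mice these intervals are wide, and smaller differences were not detectable. Over all libraries, the 8 cortex calls became 0 without SS + RSD mouse 5391, 9615, 9616 or 9621 and 1 without 5354, and the 15 hippocampus calls became 0 without any one of these 5. The hippocampus calls became 5 without the libraries against their labels.

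**Figure D3:**
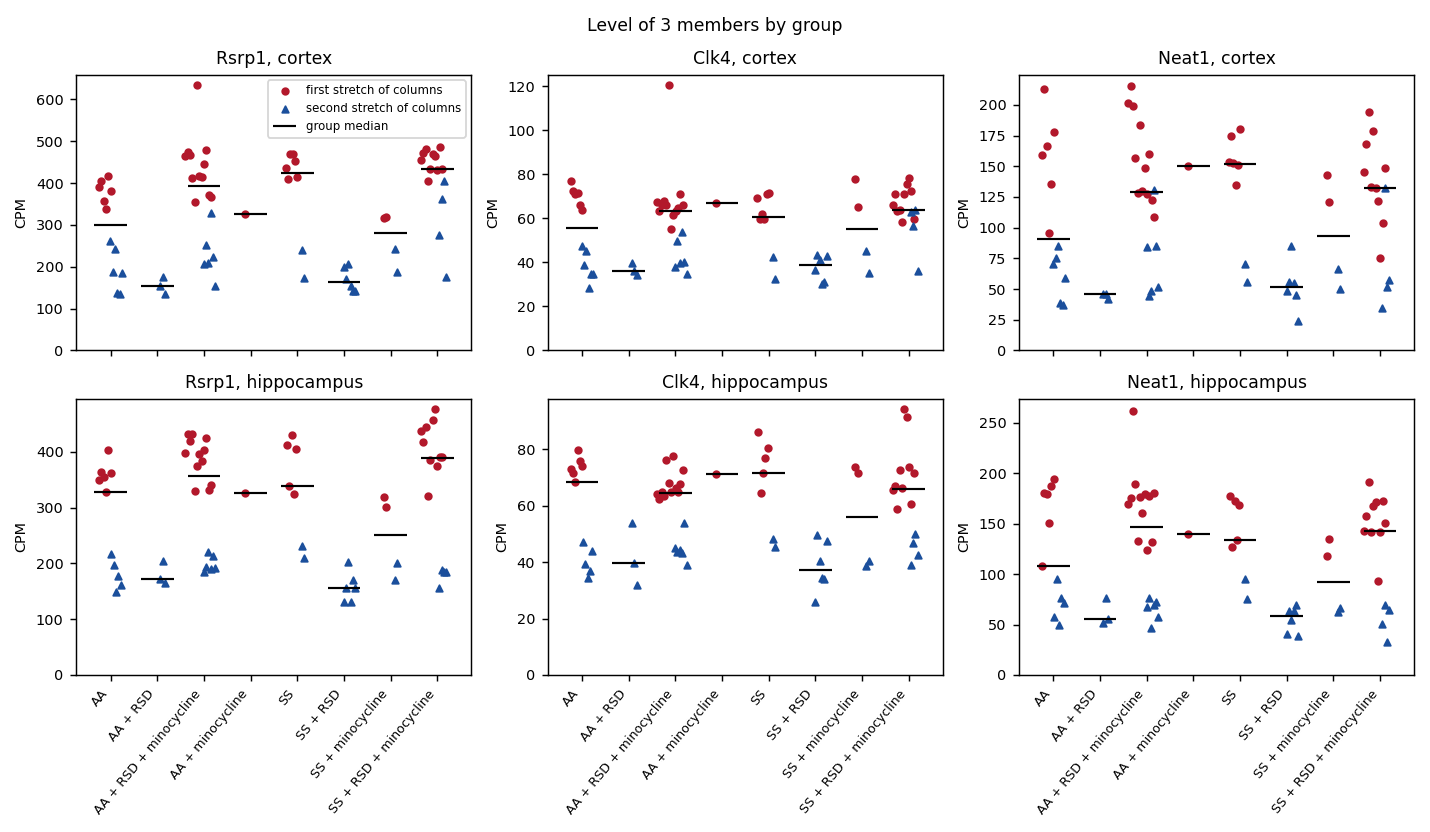
Level in CPM of Rsrp1, Clk4 and Neat1 in each library by group, in the cortex (top) and hippocampus (bottom), with red circles for columns 1 to 37, blue triangles for column 38 on and a black line at the group median. SS + RSD and AA + RSD hold blue triangles only, and in the groups with both kinds the triangles lie mostly below the circles.

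The second question was how mice with RSD and minocycline differed from mice with RSD alone. Most SS + RSD + minocycline libraries stood in the first stretch and all SS + RSD libraries in the second. The members were picked for a pattern that parts these stretches, so nothing is read from their excess over all genes. The p-values below carry the same limit. The SS + RSD mice were of number series A and the treated mice of B and C, so treatment and series cannot be told apart. In SS + RSD + minocycline against SS + RSD mice, which shares the SS + RSD libraries with the comparison above, 21 of 36 members were higher and 0 lower in the cortex (median 0.48, 6.38% of all genes higher and 2.47% lower), and 19 and 0 in the hippocampus (median 0.474, 4.88% and 1.08%). All 4 kinases were higher in both tissues, and so were Meg3, Miat, Neat1, Snrnp70, Luc7l3, Rsrp1, Pnn, Pnisr, Rbm5, Rbm25, Srsf2, Srsf5, Srsf11 and Hnrnpdl. Srsf6, Ddx17 and Srrm2 passed in the cortex alone and Luc7l2 in the hippocampus alone, and the difference between the tissues was not tested for these.

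Meg3 was 924, 5936 and 8296 CPM in the cortex of SS + RSD + minocycline mice (n = 14), 1.94 ± 0.46 above SS + RSD on the log2 scale (edgeR adjusted p = 0.0121), and Miat was 114, 718 and 956 (1.99 ± 0.47, edgeR adjusted p = 0.0123). Rsrp1 was 177, 434 and 487 (1.15 ± 0.17, edgeR adjusted p = 0.0023), and Clk1 was 62.9, 108 and 140 against 48.7, 63 and 82.2 (0.62 ± 0.15, edgeR adjusted p = 0.0119). In the hippocampus the log2 fold changes were 2.08 ± 0.53 for Meg3 and 2.01 ± 0.51 for Miat (edgeR adjusted p = 0.0289 for both). In both tissues the treated group spanned both stretches and held libraries within the SS + RSD range. The 19 hippocampus calls became 0 without SS + RSD mouse 5354, 1 without 5391 or 9615, 5 without 9616 and 12 without 9621. Malat1 did not pass in either tissue, at 180, 429 and 582 against 146, 362 and 485 CPM in the cortex. Neither did Ddx5, at 679, 786 and 969 against 593, 665 and 763.

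From column 38 on, with 4 mice of number series B against 6 of series A, edgeR called 0 of 36 members in either tissue and 0 genes in all. Treatment and number series cannot be told apart in this restricted fit either. The cortex median was still 0.296, with all 36 members above 0 and 15 at an unadjusted p under 0.05 (10.8% of all genes were). Rsrp1 was 0.78 ± 0.19, Luc7l3 0.65 ± 0.15, Srsf5 0.51 ± 0.14 and Hnrnpdl 0.51 ± 0.10 (edgeR adjusted p = 0.404 for each), while Meg3 was 0.58 ± 0.31 and Miat 0.34 ± 0.31. Cortex libraries 9890 and 5875, which had 27 and 23 members nearer the first stretch, are 2 of these 4 treated mice. In the hippocampus the median was 0.06, 4 members had an unadjusted p under 0.05 (16.3% of all genes did), and Meg3 (-0.20 ± 0.28) and Miat (-0.23 ± 0.29) turned to the other side of 0.

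**Figure D4:**
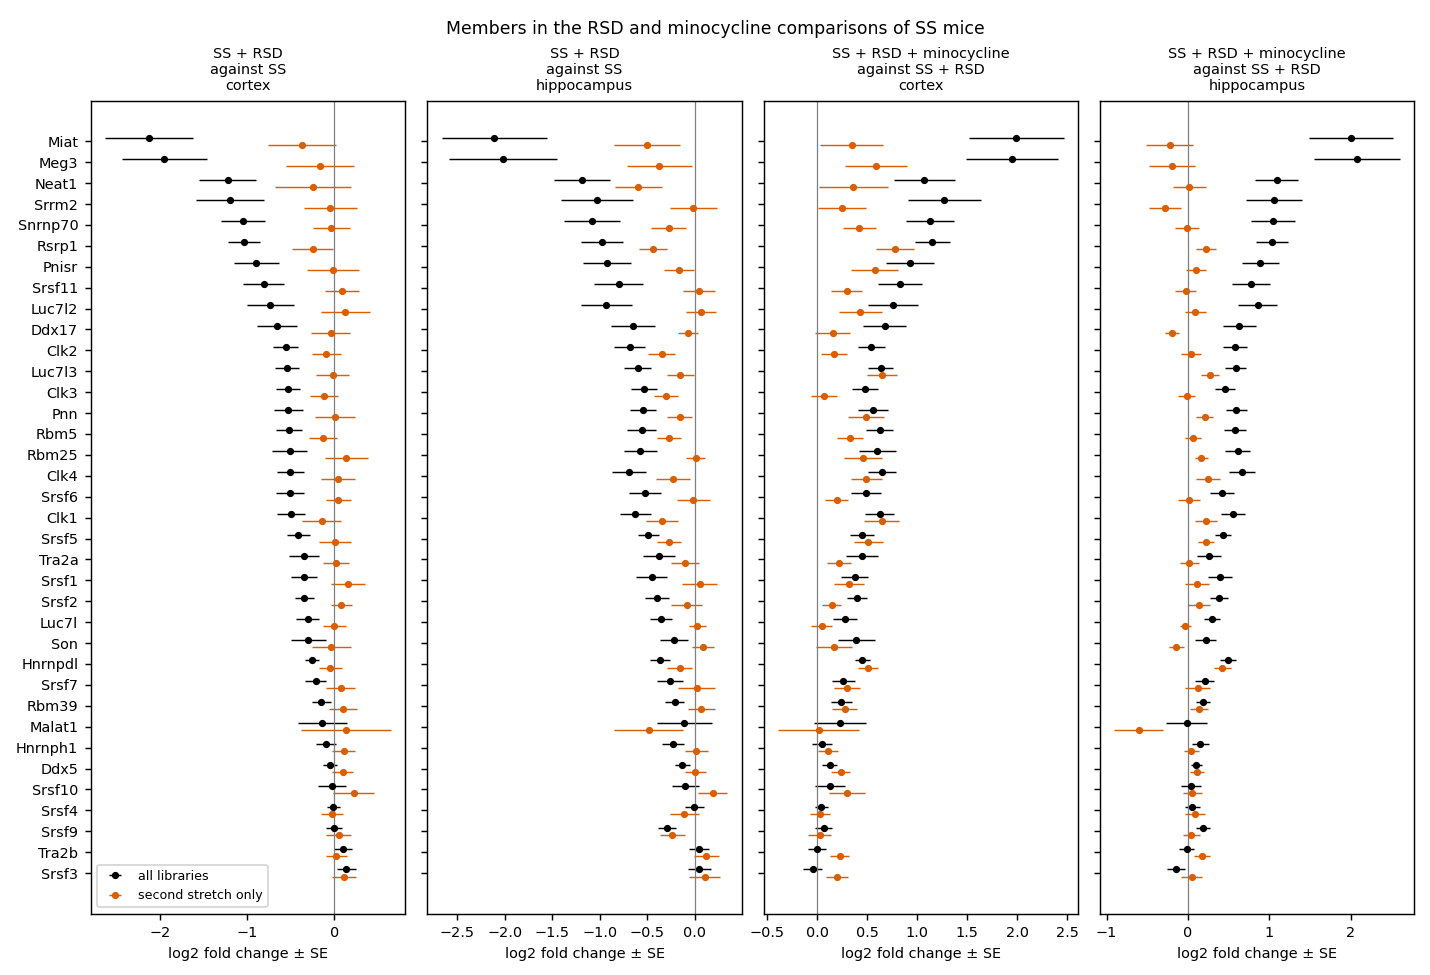
Log2 fold change ± SE of the 36 members for SS + RSD against SS (left pair) and SS + RSD + minocycline against SS + RSD (right pair), in the cortex and hippocampus. Black points use all libraries and orange points those from column 38 on. The orange points lie near 0 in the first cortex panel, and in the third panel all 36 lie above 0 with a median of 0.296.

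In AA mice the median log2 fold change with RSD was -0.469 (cortex) and -0.402 (hippocampus), and edgeR called 0 of 36 members in both, beside 0.0502% of genes lower and 0.803% higher (cortex) and 0.139% and 1.05% (hippocampus). At an unadjusted p under 0.05 there were 18 and 23 members (14.4% and 14.6% of all genes), and DESeq2 called 1 (cortex) and 0 (hippocampus). The AA + RSD libraries also stood wholly in the second stretch, so nothing is read from that difference in shares. Meg3 in AA + RSD mice was 977, 1223 and 549 CPM (cortex) and 1291, 1250 and 962 (hippocampus), and in AA mice 754, 3697 and 6652 (lowest, median and highest, n = 12) and 850, 4933 and 6159 (n = 11). Among libraries from column 38 on the medians were -0.055 and -0.058, with 0 members called and 0 at an unadjusted p under 0.05 (7.47% and 10.3% of all genes). The third AA + RSD value in each tissue is of the libraries labelled 9674.

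AA + RSD + minocycline against AA + RSD mice gave 8 higher and 0 lower members in the cortex (median 0.609, 1.67% of genes higher and 1.93% lower). The AA + RSD mice were all of number series A and stood in the second stretch. The treated mice were of series B and C and stood mostly in the first. Treatment and number series cannot be told apart here, also from column 38 on. Nothing is read from the members' excess over all genes. Meg3 was 868, 5998 and 9589 CPM in the treated group (2.44 ± 0.71, edgeR adjusted p = 0.047) and Snrnp70 differed by 1.33 ± 0.37 (edgeR adjusted p = 0.0423). In the hippocampus 1 member, Hnrnpdl, was higher (0.39 ± 0.08, edgeR adjusted p = 0.0057) and 0 lower (median 0.475, 0.682% and 1.99% of genes). In that cortex comparison all 5 choroid plexus markers and 3 of 5 hippocampus markers were also lower. The 8 cortex calls became 0 without the libraries against their labels, 0 without AA + RSD mouse 9643 or 9674 and 1 without 9646, and the hippocampus call became 0 without the libraries against their labels or without 9674 alone, and 5 without 9643. From column 38 on, edgeR called 0 in the cortex (median 0.14, 8 members and 12.8% of all genes at an unadjusted p under 0.05) and Hnrnpdl in the hippocampus (0.33 ± 0.08, edgeR adjusted p = 0.039, beside 1.67% of genes higher).

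Mice with both RSD and minocycline were also set against untreated controls, 2 comparisons in which each group held libraries of both stretches. SS + RSD + minocycline against SS mice had medians of 0.057 (cortex) and -0.033 (hippocampus), and AA + RSD + minocycline against AA mice 0.123 and 0.048, with 0 of 36 members called by edgeR in each (0.0% of genes in the first pair, 0.0319% and 0.0% in the second). The members at an unadjusted p under 0.05 numbered 1 and 0 in SS mice (6.16% and 3.67% of all genes) and 1 and 1 in AA mice (6.4% and 2.88%), and DESeq2 called 0, 0, 1 and 1. Within the first stretch alone, where 10 SS + RSD + minocycline mice met 6 SS mice in the cortex and 5 in the hippocampus, the medians were -0.023 and -0.05, with 0 and 1 at an unadjusted p under 0.05 (5.08% and 5.9% of all genes). The 12 AA + RSD + minocycline against 6 AA mice gave 0.016 and -0.056, with 4 and 6 (5.54% and 4.51%).

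SS + minocycline mice, 4 against 8 cortex and 7 hippocampus controls, had 0 of 36 members called by edgeR and by DESeq2 in both tissues (0.0% of all genes), with medians of -0.118 and -0.233 and 1 member each at an unadjusted p under 0.05 (7.06% and 2.17% of all genes). Meg3 in the cortex of these mice was 7600, 6544, 1429 and 771 CPM, Miat 846, 746, 183 and 98.3 and Rsrp1 317, 320, 242 and 187. The first 2 values of each are of mice in the first stretch and the others of mice in the second. The single AA + minocycline mouse, in the first stretch, had 6034 CPM of Meg3 and 327 of Rsrp1 in the cortex.

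The genotypes were compared without treatment and with both. In SS against AA mice, edgeR and DESeq2 called 0 of 36 members in either tissue, beside 0.209% of genes higher and 0.00436% lower (cortex) and 0.155% and 0.00431% (hippocampus). The medians were 0.179 and 0.175, and 5 and 2 members had an unadjusted p under 0.05 (6.55% and 3.71% of all genes). In the cortex these included Hnrnpdl (0.18 ± 0.07, edgeR adjusted p = 0.633), Srsf2 (0.27 ± 0.10, 0.662) and Clk2 (0.34 ± 0.13, 0.684). Within the first stretch the medians were 0.025 and 0.063. In SS + RSD + minocycline against AA + RSD + minocycline mice the medians were 0.059 and 0.066, with 0 called by edgeR and by DESeq2 in either tissue (0.606% of genes higher and 0.0174% lower in the cortex, 2.62% and 0.112% in the hippocampus) and 2 and 0 at an unadjusted p under 0.05 (8.26% and 8.34% of all genes). In the cortex from column 38 on, where the 4 SS mice include 9890 and 5875, the median was 0.245 and 16 members had an unadjusted p under 0.05 (9.32% of all genes did), with 0 called.

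The other RNA-processing lists were tested in the same models. In SS + RSD against SS mice, 0 of 38 core spliceosome genes were called in either direction in either tissue by edgeR (median 0.233 (cortex) and 0.153 (hippocampus)). Of 26 other SR-related genes, 2 were lower (cortex) and 1 (hippocampus), of 28 other hnRNPs 3 and 3, and of 16 other long noncoding RNAs 2 and 4, with 0 higher in each. Of all genes, 2.29% were lower in the cortex and 3.01% in the hippocampus. In SS + RSD + minocycline against SS + RSD mice, 7 other SR-related genes, 4 other hnRNPs and 6 other long noncoding RNAs were higher in the cortex and 0 lower, and 4, 4 and 5 were higher in the hippocampus. The shares of all genes higher were 6.38% (cortex) and 4.88% (hippocampus). Core spliceosome genes had 1 higher and 1 lower in the cortex. The lists of cell type markers moved beside these. Of 5 microglia markers, 1 was higher in the cortex of SS + RSD than of SS mice and 2 were lower in SS + RSD + minocycline than in SS + RSD mice in each tissue, and of 6 astrocyte markers 2 were lower in each tissue in the latter comparison. Of all genes, 0.281% were higher in the first of these cortex comparisons, and 2.47% (cortex) and 1.08% (hippocampus) lower in the second. Microglia markers also differed between stretches, at 260 to 335 CPM in the first hippocampus stretch and 304 to 490 in the second. All SS + RSD libraries stood in the second stretch, so no effect of RSD or minocycline is read from the counts of these lists. The part of the markers in the members' values was not tested.

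The tissues were compared in 64 mice with both libraries, and both libraries of a mouse carry the same number in the labels. Without the mouse in the model, 8 members were higher in the hippocampus and 2 lower (28% and 24.5% of 24165 genes). With the mouse as a block, 16 were higher and 4 lower (31.6% and 27.8%). Where the block is not named, fold changes and p-values are of the fit without the mouse. That fit counts both libraries of a mouse as independent. Srsf9, an SR protein, was the most different, at a median of 33.6 CPM (cortex) and 48.1 (hippocampus), higher in the hippocampus of 59 of 64 mice (0.48 ± 0.032, edgeR adjusted p = 6.79e-28). Its annotated exons lie opposite another gene over 46.3% of their length. Rbm39 was 177 and 192 CPM, higher in 55 of 64 mice (0.16 ± 0.031, edgeR adjusted p = 5.63e-06), and Ddx5 was 741 and 799, higher in 51 of 64 (0.15 ± 0.021, edgeR adjusted p = 3.23e-10). Srsf2, Srsf4, Srsf7, Tra2b and Luc7l were the other higher members.

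Clk3 was the clearest member in the other direction, at 89.6 CPM (cortex) and 77.8 (hippocampus) and lower in the hippocampus of 55 of 64 mice (-0.18 ± 0.047, edgeR adjusted p = 0.000597). Luc7l3 was 188 and 171 and lower in 41 (-0.12 ± 0.046, edgeR adjusted p = 0.0241). With the block, Rsrp1 and Meg3 were lower as well, and Meg3 was lower in 51 of 64 mice (-0.33, edgeR adjusted p = 3.05e-06). The members added on the higher side by the block were Clk1, Srsf1, Srsf6, Luc7l2, Hnrnph1, Son, Miat and Neat1. The median paired difference of Srsf9 was 0.59 in 36 mice of the first stretch and 0.42 in 28 of the second, and of Clk3 -0.205 and -0.202. The other lists had both directions too, with 12 higher and 5 lower of 38 core spliceosome genes and 12 and 2 of 28 other hnRNPs.

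**Figure D5:**
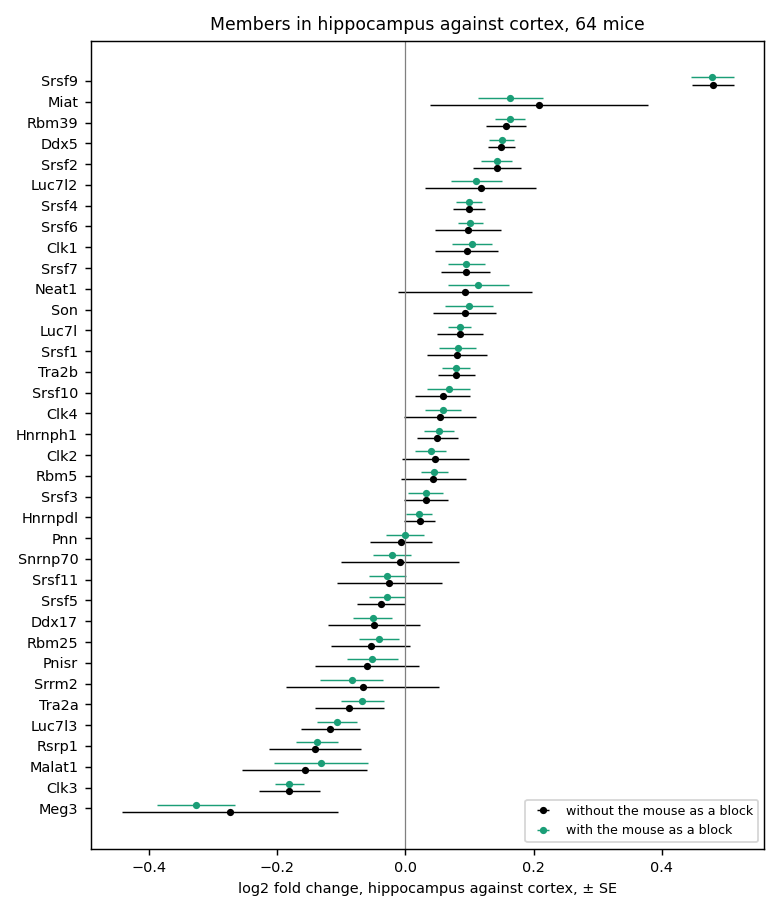
Log2 fold change ± SE of the 36 members in hippocampus against cortex over 64 mice, without (black) and with (green) the mouse as a block, ordered by the value without it. Srsf9 at 0.48 stands alone on the right, and Meg3 and Clk3 lie left of 0.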

How the data were processed

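The authors deposited 1 table of raw read counts per gene for each tissue, from polyA-selected directional single-read libraries aligned to GRCm39 with STAR and counted on GENCODE genes. The 4 summary rows (unmapped, multimapping, no feature, ambiguous) were kept out of library sizes and tests. The no-feature row gives the share called outside genes. The STAR version, annotation release and strand setting are not given in the sources used here. Of 135 labelled libraries, 134 had a group, and 1 whose labels name different tissues and 3 columns matching no such library were not used. Depth ran from 12869149 to 107713193 reads on genes, and low counts carry the larger counting error.

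Groups came from the labels. Counts were tested with edgeR 4.0.16 (R 4.3.3; filterByExpr with a minimum count of 10 and total of 15, TMM, quasi-likelihood F test) in 1 model per genotype, or of all groups for genotype and tissue, and Benjamini-Hochberg adjusted over all genes, called at 0.05. DESeq2 1.42.0 was an alternative, with other size factors, no filter, a term for the number series or for the share outside genes, single number series, leaving out doubted libraries or single mice, and, added after seeing the data, single stretches of columns. The scripts were tested on simulated data. Figures used matplotlib 3.10.9, and promoters and annotation a GENCODE release of GRCm39 that may differ from the authors'. Tissues were paired by mouse, since both libraries of a mouse carry its number. Their deviations from group means correlated above 0.1 in 61 of 63 mice (median 0.333). Both libraries of a mouse also stood in the same stretch of columns. The deviations share that step, so the correlation cannot show that the pairs are right, and the pairing rests on the labels. The members and lists were chosen with earlier results of these data known. The design named 10 members for group levels (Rsrp1, Malat1, Neat1, Meg3, Miat, Clk1, Clk4, Srsf5, Luc7l3 and Ddx5) and, per comparison, up to 2 called members of largest change in each direction. Other members are named from their values.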

Additional observations from a re-analysis of the deposited data

Results flagged for a closer look

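In each group of 4 to 10 libraries, the highest and the lowest value of the 10 named members were compared with the rest by Dixon's ratio at the 95% level. Chance flags about 5% of groups, and 2 of 60 stood out. Malat1 in the hippocampus of SS mice was 759 CPM in mouse 5349, while the next of 7 mice had 443 and the lowest 283. Miat in the cortex of SS + RSD mice was 240 CPM in mouse 5400, while the next of 6 mice had 148 and the lowest 93.4. Both libraries stand from column 38 on.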

How the results depend on the processing

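Counts of called members below are out of 36. For SS + RSD against SS, the cortex count of 8 was 17 with RLE size factors, 21 with DESeq2 and 1 with no filter on low counts. It was 0 with the share of reads outside genes as a term, in number series A alone, and from column 38 on, with or without the libraries against their labels, and 0 to 12 when single mice were left out. The hippocampus count of 15 was 7 with RLE, 0 with no filter, 5 without the libraries against their labels, 0 with the share as a term, in series A and from column 38 on (both versions), and 0 to 17 with single mice left out. For SS + RSD + minocycline against SS + RSD, the cortex count of 21 was 1 with the share as a term, 0 with the number series in the model and from column 38 on (both versions), and 16 to 22 with single mice left out, and the hippocampus count of 19 was 8 with no filter, 0 with the share or the series as a term and from column 38 on (both versions), and 0 to 18. With the number series added to the model, Miat and Meg3 turned to -0.19 and -0.24 (cortex) and -0.061 and -0.018 (hippocampus), and to -0.23 and -0.20 in the hippocampus from column 38 on (both versions). The series term takes the difference between A and B from the SS controls, whose series A stood in the second stretch and B in the first. It assumes the same difference in treated mice, of which 4 of series B stood in the second stretch. This fit therefore does not part treatment from series. SS + minocycline against SS in the cortex went from 0 to 26 in series B alone, where both treated mice stand in the second stretch and all 6 controls in the first. For AA + RSD + minocycline against AA + RSD, the cortex count of 8 was 17 with DESeq2, 4 with no filter, 0 without the libraries against their labels, 0 with the share or the series as a term and from column 38 on (both versions), and 0 to 1 with single mice left out. The hippocampus count of 1 was 8 with DESeq2, 0 without the libraries against their labels, with the series as a term and from column 38 on without those libraries, and 0 to 5. AA + RSD against AA had 1 with DESeq2 in the cortex and 0 to 3 in the hippocampus with single mice left out (3 without 9643), and AA + RSD + minocycline against AA had 1 with DESeq2 in each tissue. Where a setting removes mice, fewer mice enter the fit. For the other changes the cause was not tested. Hippocampus against cortex had 10 members called, 5 in series A, 4 in series C and 20 with the replicate block of paired mice. The other 148 counts under alternatives lay within 1.5 times the count reported. Of the named log2 fold changes, 86 kept their direction but lost the call.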
